A study of Mus musculus with 4 samples.

Results

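The genes described are those of mitochondrial protein import and mitochondrial dynamics: every protein-coding gene whose symbol is Tomm or Timm followed by a number, together with Samm50, Pam16, Pmpca, Pmpcb, Mfn1, Mfn2, Opa1, Dnm1l, Fis1, Mff, Tfam, Polrmt, Phb and Phb2. The rule for choosing them is written in gene names and uses no measured value, though it was drawn up with earlier results of these data known. It gave 37 members of 21764 protein-coding genes and of 50600 genes in all. A looser reading of the name rule would also take Timm8a1 and Timm8a2, for 39 members, and these are given with the related genes. RNA was sequenced from T cells of C57BL/6NJ mice in 4 libraries, numbered as biological replicates 1 to 4 of a single group. The headers of the count files name the cells as Th0, activated, sorted and 72 h, and the culture protocol they link to bears the name of CD4+ T cell differentiation. The assay is labelled total RNA-seq while the linked library protocol is named for polyadenylated RNA. All 4 libraries carry one donor entry, sex was not collected and age is unknown, so p-values measure only the spread between these libraries, which may be technical.

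Nearly all proteins of the mitochondrion are encoded in the nucleus, made in the cytosol and brought in through membrane machines. The TOM complex forms the entry gate in the outer membrane, from which TIM23 takes proteins with a presequence to the matrix and inner membrane, the small TIM chaperones carry hydrophobic proteins across the intermembrane space to TIM22, and SAM inserts beta-barrel proteins into the outer membrane. The mitochondrion is also a network that fuses (Mfn1, Mfn2, Opa1) and divides (Dnm1l with its outer membrane partners), and activated T cells are known for building mitochondrial mass as they grow and for remodelling this network.

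Library depth ranged from 34978213 counts in replicate 1 to 118937382 in replicate 2. In the marker check, all 6 T cell markers reached 1 TPM in every library, where TPM is the count divided by exonic length and scaled to the same total in each library. Their summed level was 5404 to 5626 TPM, and Cd4 stood at 938 to 1008 TPM. Cd8b1 was at 17.5 to 29.2 TPM and Cd8a at 0.0636 to 0.511 TPM. The 4 B cell markers summed to 2.24 to 5.51 TPM, the 4 macrophage and monocyte markers to 1.84 to 3.49 TPM, with Lyz2 at 0 counts, and all 3 neutrophil markers were at 0 counts. The part of those other cells in the values below was not tested. In these bulk libraries fewer cells of a type and less RNA per cell cannot be told apart.

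The import and dynamics genes were expressed almost throughout. Of the 37 members, 35 reached 1 TPM in each of the 4 libraries, against 49.9% of all protein-coding genes, and the same 35 were at 10 or more. Their median mean level was 71 TPM, against 1.43 TPM over all protein-coding genes. The level of 36 members lay above that overall median, 32 were in the top 25% of protein-coding genes and 15 in the top 10%. This background includes 6435 protein-coding genes with 0 counts in all 4 libraries, and a median over expressed genes alone was not computed. Summed over the members, the level was 4434, 4502, 4303 and 4539 TPM in replicates 1 to 4, or 4444 ± 104 TPM (SD, n = 4). The members were spread from 0 to 433 TPM: 3 had a mean of at least 300, 4 had 200 to 300, 7 had 100 to 200, 11 had 50 to 100, 10 had 10 to 50 and 2 were under 10.

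**Figure D1:**
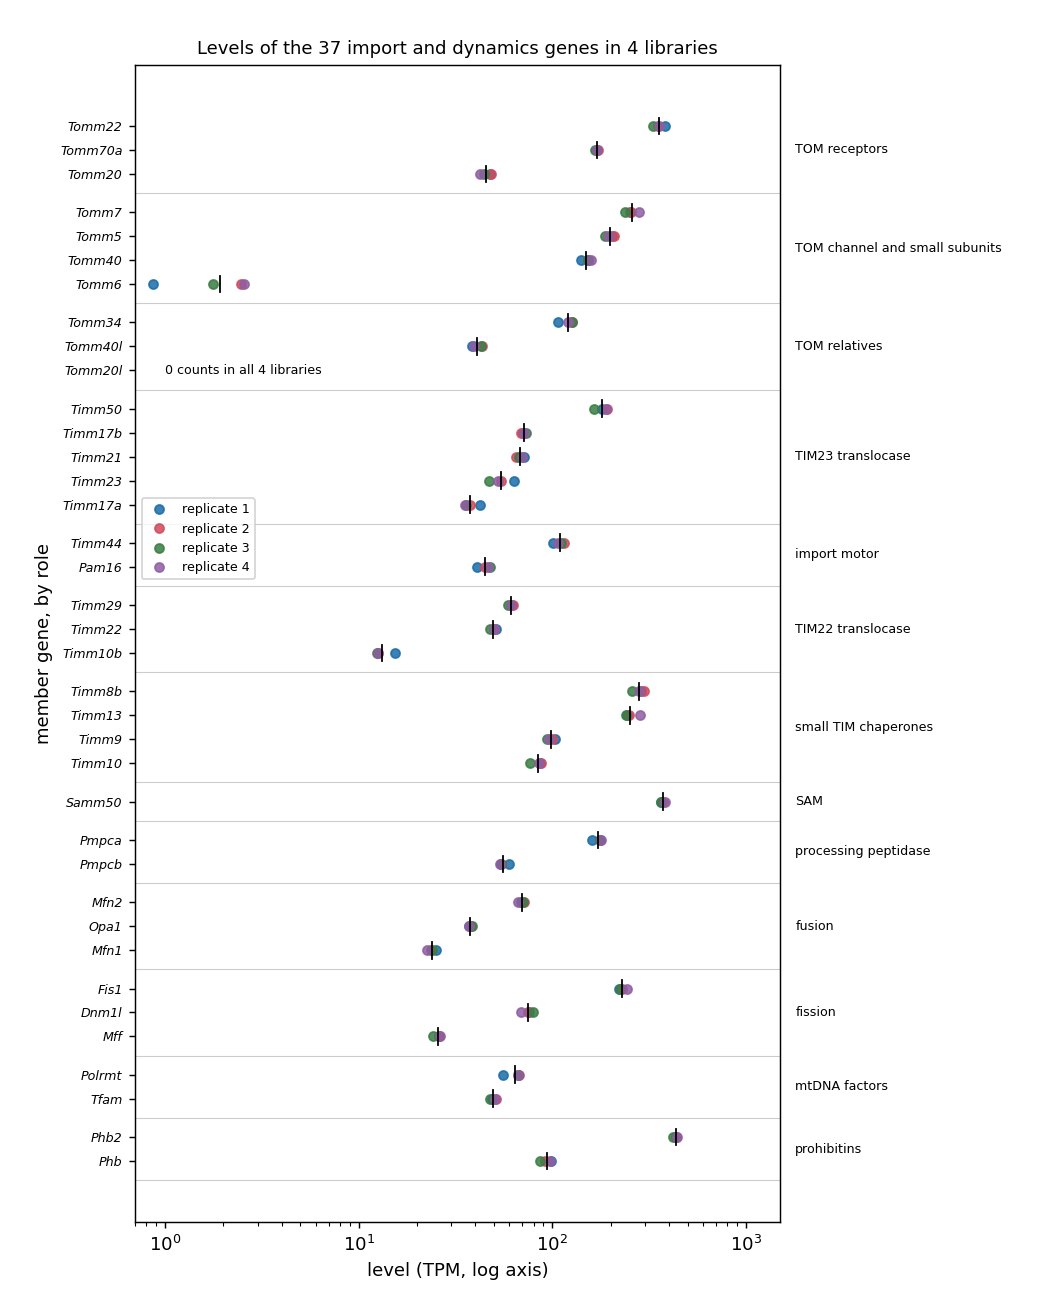
Level of each member in each library (points, TPM on a log axis, coloured by replicate), with the mean over 4 libraries as a black line, grouped by role. The points of most genes lie close together; Tomm6 spreads from 0.862 to 2.54 TPM and Tomm20l had 0 counts.

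Sequence upstream of the members was examined because factors that bind there, nuclear respiratory factor NRF1 and the ETS-family factor GABP, are known for regulating nuclear genes of mitochondrial proteins. RefSeq promoter windows on GRCm38.p6, from 250 bases before to 50 after a gene's start, were matched by symbol for 34 of the 37 members (all but Tomm7, Tomm40l and Timm21). Matches are counted by gene: a gene with several annotated starts has several windows, and a match in any of them counts. The ETS core CCGGAAG, on either strand, was present for 16 of the 34 members (47.1%). It was present for 12.9% of 17492 protein-coding genes with a window and for 22.1% of the 8681 that reached 1 TPM in each library. Among the 32 expressed members it was present in 50%, and in 29 of 60 related mitochondrial genes with a window (48.3%). GCGCATGCG, the NRF1 motif, was present in Timm13 and Opa1 (5.88%, against 2.61% of all genes with a window, and 6.25% of expressed members against 4.48% of expressed genes). AAGATGGCG (YY1) was present in 1 member, Timm50 (2.94% against 2.14% of all genes with a window, and 3.12% against 3.97% among expressed genes). CACGTG, the E-box of Myc and Max, was present in 5 members (14.7% against 8.91%), 1 of them the undetected Tomm20l, and among expressed genes in 12.5% of members against 12%. GGGGCGGGG (SP1) was present in 4 (11.8% against 17.3%, and 12.5% against 25.7% among expressed genes). TGACGTCA, the cAMP response element, was present in 0 members, against 2.54% of all genes with a window and 3.8% of expressed genes. These matches describe letters in a window and show neither binding nor a cause of the levels. One 60-base stretch for several roles is printed with the match in capitals, 5′ to 3′ on the gene's strand, for Tomm22, Tomm70a, Timm8b, Fis1 and Polrmt (ETS) and for Timm13 and Opa1 (NRF1):

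Tomm22, chr15:79670796-79670855, + strand: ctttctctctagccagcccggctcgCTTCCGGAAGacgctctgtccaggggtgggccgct

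Tomm70a, chr16:57121609-57121668, + strand: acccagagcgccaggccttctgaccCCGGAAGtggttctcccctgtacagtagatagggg

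Timm8b, chr9:50603841-50603900, + strand: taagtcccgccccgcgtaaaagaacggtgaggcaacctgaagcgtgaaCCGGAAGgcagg

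Fis1, chr5:136953215-136953274, + strand: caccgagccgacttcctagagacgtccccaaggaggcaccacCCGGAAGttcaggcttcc

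Polrmt, chr10:79746590-79746649, - strand: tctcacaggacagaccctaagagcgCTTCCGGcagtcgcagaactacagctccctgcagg

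Timm13, chr10:80901128-80901187, - strand: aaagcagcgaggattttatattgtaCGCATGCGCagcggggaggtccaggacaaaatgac

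Opa1, chr16:29579250-29579309, + strand: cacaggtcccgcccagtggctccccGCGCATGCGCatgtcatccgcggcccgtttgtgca

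The capitals in Tomm22 and Opa1 hold the motif on both strands, overlapping itself. Tomm22 and Opa1 thus each carry 2 matches, as does Tomm70a, whose other match lies outside the printed stretch.

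The receptors of the outer membrane gate differed widely in level. Tomm22, the central receptor that joins the complex together (chromosome 15, 79670861 to 79672862), was at 381, 350, 333 and 354 TPM in replicates 1 to 4. Tomm70a, the receptor for carrier proteins brought by chaperones, was at 171, 172, 167 and 171 TPM. Tomm20, the receptor for presequences, was at 47.7, 48.1, 44.1 and 42.4 TPM. The ranges of the 3 genes did not overlap. As a within-library difference of log2(TPM + 0.1), Tomm20 minus Tomm22 was -2.96 ± 0.09 and Tomm20 minus Tomm70a -1.90 ± 0.08 (mean ± SD, n = 4, as for every contrast below).

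Tomm40, the beta-barrel channel itself, was at 140, 152, 152 and 158 TPM. Its length matters: divided by the principal transcript rather than by the exons of all isoforms, its level was 412 ± 20.2 (SD, n = 4). Principal transcript length here and below means the bases of that transcript that lie in the exons counted for the gene. Levels with this length are TPM times exonic length over that length. They keep the counts of all isoforms and are not rescaled to the library total. They are too high where reads fall outside the principal transcript. Of the small subunits beside Tomm40, Tomm7 was at 252, 255, 238 and 281 TPM and Tomm5 at 203, 207, 186 and 195 TPM. Tomm6, the other small subunit, was at 0.862, 2.45, 1.77 and 2.54 TPM, the lowest of the members with any count. Of its 1131 exonic bases, 859 (76%) lie in same-strand exons of the neighbouring gene model Gm21981, and read pairs falling in both genes were not counted for either. Divided by the unshared length, also without rescaling, the level of Tomm6 was 7.93 ± 3.23 (SD, n = 4). The part of the overlap in its low level was not tested. The median of the channel and small subunits minus that of the receptors was 0.02 ± 0.03 log2, higher in 3 of 4 libraries (exact sign-flip p = 0.375). The sign of this difference depended on the setting: it was 0.21 without Tomm6 and 0.62 with principal transcript length, but -0.82 with counts not divided by length and -1.19 with group means.

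Of the 3 relatives of TOM subunits, 2 were expressed. Tomm34, a cytosolic co-chaperone of import, was at 107, 127, 126 and 121 TPM. Tomm40l, a second form of the channel, was at 38.6, 43.3, 42.6 and 39.4 TPM, below Tomm40 in every library by 1.87 ± 0.08 log2. Tomm20l, a relative of Tomm20 (chromosome 12, 71111428 to 71123222), had 0 counts in all 4 libraries. A count of 0 allows up to 0.446, 0.138, 0.388 and 0.17 TPM at these depths, so Tomm20 was at least 107-, 348-, 114- and 249-fold higher in replicates 1 to 4, with counting error only in that bound.

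In the TIM23 translocase, Timm50, the receptor that takes up presequence proteins from TOM, was highest at 180, 191, 165 and 190 TPM. Timm23, the channel-forming subunit, was at 63.3, 54.3, 47.3 and 52.2 TPM, with Timm23 minus Timm50 at -1.74 ± 0.16 log2. Replicate 1 was the highest and replicate 3 the lowest library for Timm23, and its coefficient of variation was 12.3%. The 2 forms of the other core subunit were unequal: Timm17b was at 70.8, 68.6, 73 and 71.5 TPM and Timm17a at 42.1, 37.4, 35.8 and 35.5 TPM. Timm17a minus Timm17b was -0.91 ± 0.13 log2, lower in 4 of 4 libraries. Timm17a is the longer gene model (7893 against 2557 exonic bases), and counts not divided by length put it above by 0.71. Timm21, which links TIM23 to TOM and to respiratory complexes, was at 65 to 71.5 TPM.

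Of the import motor, which pulls proteins into the matrix, Timm44, the anchor of mitochondrial Hsp70, was at 101, 115, 111 and 107 TPM. Pam16, a regulator of the motor's J protein, was at 40.8, 44.8, 47.5 and 46.6 TPM, lower than Timm44 by 1.27 ± 0.07 log2. A near-identical copy (at least 95% identity over at least 100 bases) covered 95.6% of the Timm23 transcript (Gm10273) and 89.6% of the Pam16 transcript (Gm9803). Reads that map to several places were not counted, so the levels of Timm23 and Pam16 are uncertain.

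With exonic length, the small TIM chaperone genes Timm8b, Timm13, Timm9 and Timm10 lay above the genes grouped as the TIM22 translocase. Counts not divided by length turned this order, to -0.39 log2 for the chaperones minus TIM22 by group medians. Timm8b and Timm13, partners in one small TIM chaperone, were at 287, 296, 259 and 281 TPM and at 242, 248, 239 and 283 TPM. Their ranges overlapped, and their difference was 0.15 ± 0.13 log2, with Timm8b higher in 3 of 4 libraries (exact sign-flip p = 0.25). It was -0.01 with principal transcript length and -1.25 with counts not divided by length. The partners of the main chaperone were also close, with Timm9 at 103, 99.4, 94.4 and 96.2 TPM and Timm10 at 86.4, 87.9, 76.3 and 85.2 TPM. Timm9 was higher than Timm10 by 0.23 ± 0.06 log2 in 4 of 4 libraries, and by 0.03 with principal transcript length.

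Timm22, the channel of the TIM22 translocase, was at 51, 50.1, 47.5 and 49.9 TPM, and Timm29, its metazoan subunit, at 58.8 to 62.4 TPM. Timm22 and Timm23, the channels of the 2 inner membrane translocases, differed by -0.12 ± 0.14 log2 with exonic length, with Timm22 lower in 3 of 4 libraries (exact sign-flip p = 0.25). The difference was -0.55 with principal transcript length, on the same side. Counts not divided by length gave 0.71, a value that also holds the difference in exonic bases (3183 for Timm22, 1786 for Timm23). With a near-identical copy over 95.6% of the Timm23 transcript, their order was not settled. Timm10b, the small TIM that docks the chaperones on TIM22, was at 15.4, 12.5, 12.4 and 12.5 TPM, 2.67 ± 0.15 log2 below Timm10. Replicate 1 stood above the other libraries for Timm10b, and 10.5% of its exonic bases are shared with the gene model Gm45799. By group medians the small TIM chaperones lay above TIM23 by 1.21 ± 0.06 and above TIM22 by 1.66 ± 0.04 log2. Both differences rest on the grouping: Timm10b was placed with TIM22, and Timm8a1 (13.4 TPM) and Timm8a2 (0.206 TPM) with the related genes. The differences with these low small TIM genes among the chaperones were not computed. The TOM receptors lay above TIM23 by 1.32 ± 0.06 log2. Counts not divided by length turn both chaperone differences, to -0.59 and -0.39. The chaperone genes have 518 to 1371 exonic bases and the TIM23 genes 1315 to 7893.

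Samm50, the core of SAM, was at 365, 374, 365 and 380 TPM, next to Phb2 in the order by exonic length and overlapping Tomm22. Tomm40, one of the beta-barrels that SAM inserts, minus Samm50 was -1.30 ± 0.05 log2, lower in 4 of 4 libraries. The order turned with principal transcript length, where Tomm40 was 0.14 log2 above Samm50. For Samm50 that length holds 1665 of the 4629 bases of the principal transcript, as the rest lie outside the counted exons. The exons of Tomm40 over all isoforms come to 4513 bases and its principal transcript to 1646.

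Pmpca and Pmpcb, the 2 subunits of the peptidase that removes presequences, were at 160, 176, 176 and 178 TPM and at 59.9, 54.4, 54.2 and 53.5 TPM. Pmpca was higher by 1.63 ± 0.14 log2 in 4 of 4 libraries. With principal transcript length the difference was 0.41, since only 1615 of the 5141 exonic bases of Pmpcb lie in its principal transcript. In replicate 1 Pmpca was lowest and Pmpcb highest, so the pair was closest there, at 1.42 log2.

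Among fusion genes, Mfn2, an outer membrane mitofusin, was at 69.2, 71.6, 70.6 and 66.6 TPM. Mfn1, the other mitofusin, was at 25.2, 23.6, 23.9 and 22.5 TPM, with Mfn1 minus Mfn2 at -1.54 ± 0.06 log2. Opa1, the dynamin-like protein of inner membrane fusion and cristae shape, was at 37.1, 38, 38.4 and 37.2 TPM, with Opa1 minus Mfn2 at -0.88 ± 0.03 log2. The 3 genes kept the order Mfn2, Opa1, Mfn1 in every library without overlap.

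Among fission genes, Fis1, an outer membrane protein of fission, was at 222, 229, 224 and 244 TPM. Dnm1l, the dynamin-related GTPase that constricts the mitochondrion, was at 75.4, 75.2, 79.3 and 68.6 TPM. Mff, the outer membrane receptor that recruits it, was at 25.9, 25.9, 24.2 and 26.4 TPM. Fis1 exceeded Mff by 3.16 ± 0.05 log2 and Dnm1l exceeded Mff by 1.54 ± 0.14 log2, each in 4 of 4 libraries. Mff has 9757 exonic bases over all isoforms but 1894 in its principal transcript. With the shorter length and all counts kept, its level was 132 ± 5.04 (SD, n = 4). On that scale Fis1 exceeded Mff by 1.92, and Dnm1l minus Mff was -0.77 log2. By group medians the fusion genes minus the fission genes came to -0.98 ± 0.07 log2 with exonic length and -1.47 with principal transcript length. With counts not divided by length the difference was -0.04, without one direction in all libraries (exact sign-flip p = 0.375). With 3 genes in each group, a median is the level of a single gene. These were Opa1 and Dnm1l with exonic length, and Opa1 and Mff with principal transcript length. The groups also interleaved, as Mfn2 lay above Mff with exonic length.

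Of the factors that act on mitochondrial DNA, Polrmt, the mitochondrial RNA polymerase, was at 55.3, 66.9, 66.8 and 66.5 TPM, with replicate 1 below the others. Tfam, which packages mitochondrial DNA and starts its transcription, was at 48.8, 51.1, 47.8 and 50.3 TPM, and Tfam minus Polrmt was -0.36 ± 0.13 log2.

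Phb2, a prohibitin of the inner membrane scaffold (chromosome 6, 124712336 to 124716950), had the highest mean of the members with either length, at 434, 435, 421 and 442 TPM. Its partner Phb was at 98.3, 92.1, 86.1 and 97.3 TPM, although the proteins are known to assemble together in one ring. Phb minus Phb2 was -2.21 ± 0.06 log2, lower in 4 of 4 libraries. It was -3.07 with principal transcript length, where the level of Phb2 was 1221 ± 25.3 (SD, n = 4) with the counts of all isoforms kept. Near-identical copies covered 51.5% of the Phb transcript, and its level is uncertain for that reason. The genes with these copies held 3794, 12733, 5097 and 10370 counts in replicates 1 to 4, against 3112, 9416, 3131 and 8058 for Phb. Those counts are over the whole of each gene, and the part of uncounted or misplaced reads in the lower level of Phb was not tested. The prohibitins lay above the mitochondrial DNA factors by 1.84 ± 0.11 log2 by group medians, and by 2.70 with principal transcript length.

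Counted together, 17 of 19 gene pairs and 5 of 6 role group contrasts had one direction in 4 of 4 libraries. Each of these had an exact two-sided sign-flip p of 0.13, the smallest that 4 libraries allow, and adjusted p-values of 0.14 over the pairs and 0.15 over the group contrasts. No contrast could reach 0.05 in this design. Member means ran from 0 to 433 TPM, and 33 members had a coefficient of variation under 10%, so one direction is likely for most pairs of genes. The share over other gene pairs was not computed. Differences between genes also rest on the length used: for 6 members (Tomm40, Timm44, Pmpcb, Fis1, Mff and Phb2) the exonic length is over 2 times that of the principal transcript. Counts not divided by length also shrank several differences without turning them, such as Tomm20 minus Tomm22 (-0.82), Timm10 minus Timm10b (0.54), Fis1 minus Mff (0.66) and Dnm1l minus Mff (0.29). Tomm40 and Tomm40l differed by 3.20 log2 with the shorter length and by 1.87 with the longer. In the order of all members by mean TPM, 9 of 36 neighbouring pairs did not overlap between libraries. These were Phb2 and Samm50, Tomm22 and Timm8b, Fis1 and Tomm5, Tomm70a and Tomm40, Tomm40 and Tomm34, Opa1 and Mff, Mfn1 and Timm10b, Timm10b and Tomm6, and Tomm6 and Tomm20l, while the other 27 pairs overlapped.

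**Figure D2:**
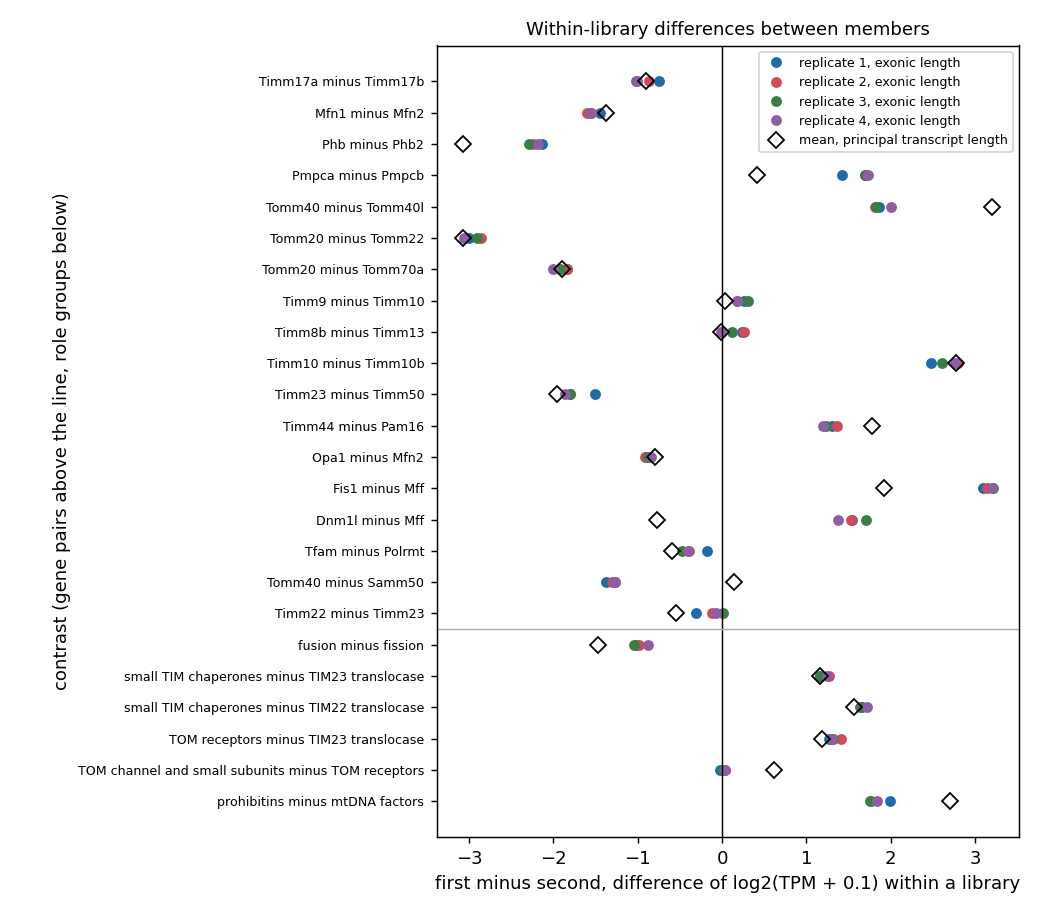
Within-library difference of log2(TPM + 0.1) between 2 members or 2 role groups (x axis, first minus second), with coloured points for the 4 libraries and exonic length, and an open diamond for the mean with principal transcript length; the pair Tomm20 and Tomm20l is not drawn. Points of a pair lie close together, while the diamond lies on the other side of 0 for Dnm1l minus Mff (-0.77), Tomm40 minus Samm50 (0.14) and, barely, Timm8b minus Timm13 (-0.01).

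Between libraries the members varied no less than protein-coding genes of 10 to 500 TPM, by the median SD given below. The coefficient of variation was under 10% for 33 members, and the exceptions with counts were Tomm6 (40.8%), Timm23 (12.3%) and Timm10b (11%). The share of all genes under 10% was not computed. edgeR's goodness-of-fit test, which asks whether a gene varies between libraries more than is usual at its level, called 0 of the 36 members tested at an adjusted p below 0.05. Over all genes it called 66 of 14269, or 0.463%. Unadjusted, 2 members were below 0.05, both of the TIM23 translocase: Timm23 (adjusted p = 0.66 in edgeR) and Timm17a (adjusted p = 0.747), against 812 of 14269 genes. Which members these were depended on the setting. Without replicate 1 they were Timm13 and Tomm7 (adjusted p of 0.914 and 1 in edgeR), and Timm23 and Timm17a were both at an adjusted p of 1. With GC and length correction they were Timm17a and Mff (adjusted p of 0.495 and 0.906 in edgeR). The median SD of log2 CPM (counts scaled to library size by TMM) was 0.093 over the members, 0.119 over all genes tested and 0.084 over protein-coding genes of 10 to 500 TPM. In simulated counts the test found 46% of genes changed 1.5-fold in 1 library and 72.5% of those changed 2-fold. The changed library was always replicate 2, the deepest, and counts were drawn at the fitted dispersion for genes of all levels tested. The rates for a change in a shallower library, or for the members, were not tested.

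Small deviations were shared by library. The median centred log2 CPM of the members was 0.07, -0.01, -0.07 and 0.00 in replicates 1 to 4, and that of the related genes 0.05, -0.00, -0.05 and 0.01. Across 12159 protein-coding genes the deviation of a library correlated with GC content (rho of -0.26, 0.015, 0.073 and 0.26) and with length (-0.15, 0.015, 0.28 and -0.15), a description over genes that share a library. After correction for both, the members' medians were 0.04, -0.01, -0.04 and -0.01. On the TPM scale, 10, 13, 4 and 9 members were highest in replicates 1 to 4 and 11, 2, 17 and 6 were lowest there.

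**Figure D3:**
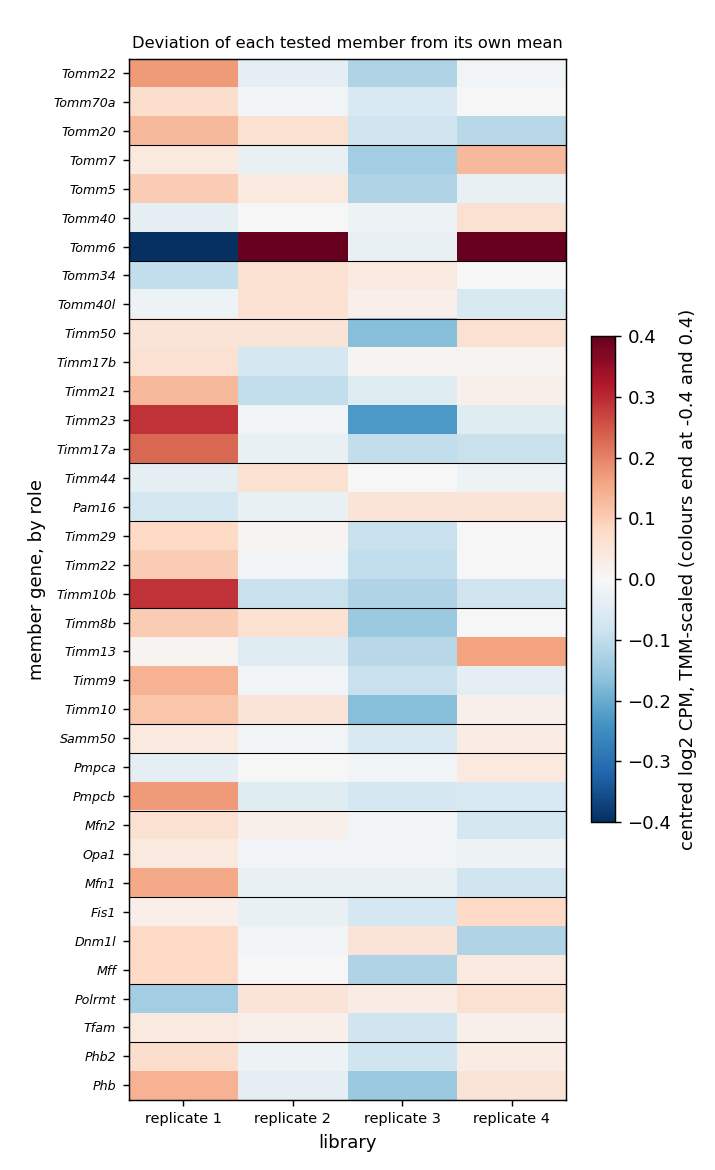
Deviation of each of the 36 tested members from its own mean (colour, centred log2 CPM) in the 4 libraries, with lines between roles. The medians over members are 0.07 in replicate 1 and -0.07 in replicate 3; Tomm6 runs past the colour range.

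The other genes of these pathways, 72 in 3 lists, included 68 (94.4%) that reached 1 TPM in each library. edgeR called 0 of the 68 tested, and 3 were below 0.05 unadjusted: Inf2, a formin (adjusted p = 0.525 in edgeR), Mtx2, a metaxin of SAM (adjusted p = 0.556), and Minos1 (adjusted p = 0.66). In the import list, 23 of 24 reached 1 TPM throughout, with a median of 56.7 TPM. The matrix chaperones Hspd1 (851 ± 34.1 TPM), Hspa9 (673 ± 25.7 TPM), the Hsp70 of the import motor, and Hspe1 (341 ± 15.6 TPM) led it. Its lowest genes were Agk, a subunit of TIM22 (6.71 ± 0.517 TPM), Immp2l, an inner membrane peptidase (5.15 ± 0.954 TPM), and Timm8a2 (0.582, 0.24, 0 and 0 TPM). Timm8a1, the other Timm8a gene, was at 13.4 ± 1.32 TPM (SD, n = 4, as for the other related genes).

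In the membrane dynamics list, 23 of 25 reached 1 TPM throughout, with a median of 43.5 TPM. Stoml2, a cardiolipin-binding scaffold protein (163 ± 9.02 TPM), Afg3l2, a matrix-facing protease (121 ± 2.15 TPM), and Minos1, a subunit of the cristae junction complex (107 ± 10.2 TPM), were highest. Spire1 was at 11.6 ± 0.726 TPM, Pld6 at 0, 0.0625, 0 and 0.79 TPM, and Gdap1, a fission factor known from neurons, had 0 counts in all 4 libraries. The mitochondrial DNA list had 22 of 23 at that level or above and a median of 24.2 TPM. It was led by Lonp1, the matrix protease that degrades Tfam (296 ± 24.9 TPM), Pprc1, a coactivator of the PGC-1 family (85.9 ± 5.04 TPM), and Polg, the mitochondrial DNA polymerase (63.2 ± 3.8 TPM). Its lowest genes were Ppargc1b (5.26, 5.12, 5.26 and 3.75 TPM), Mterf1a (4.17 ± 0.318 TPM) and Ppargc1a, which had 0 counts in all 4 libraries. The 3 coactivators of that family therefore stood at 85.9, 4.85 and 0 TPM. Gabpa and Nrf1, named after their values were seen because the ETS and NRF1 motifs are theirs, were at 38.4 ± 2.03 and 37.1 ± 1.38 TPM.

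**Figure D4:**
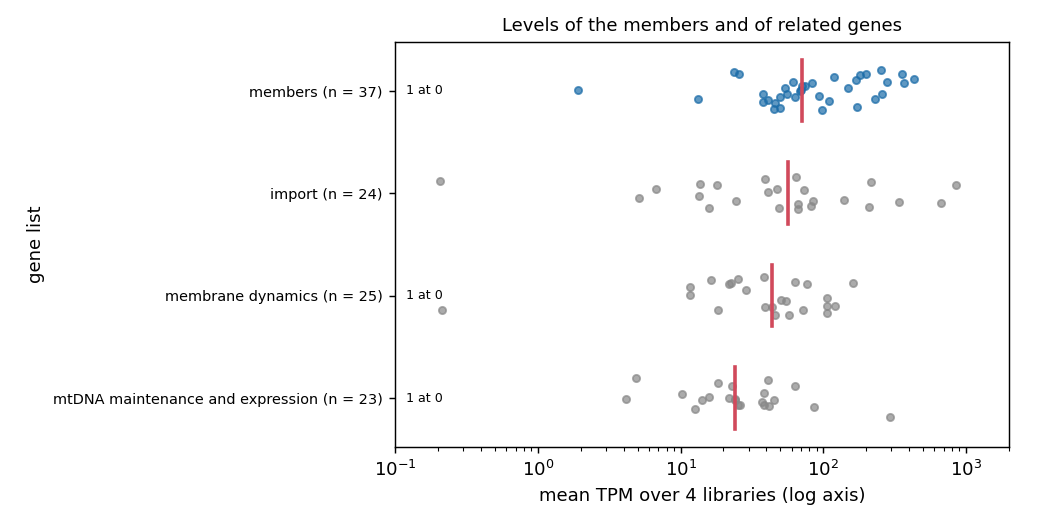
Mean TPM over 4 libraries of each gene (points, log axis) in the members and in the 3 lists of related genes, with the median in red and genes at 0 counted at the left. The medians are 71, 56.7, 43.5 and 24.2 TPM from top to bottom.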

How the data were processed

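The authors deposited raw counts of read pairs per gene, made with featureCounts 1.4.6-p4 from STAR alignments on mm10 with GENCODE M13, per the file headers. Pairs with both ends mapped were counted on the reverse strand, without the options for multiply mapped reads or reads in several genes. No source used here gives the aligner version. Counts summed to 34978213, 118937382, 42274502 and 95356041 in replicates 1 to 4. Zero-count limits (3 counts) cover counting error only.

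Symbols came from GENCODE M21 by identifier (50376 of 50600 genes matched, 99.6%). TPM was computed here from counts and exonic length. Variability was tested with edgeR 4.0.16 (R 4.3.3): filtering, TMM, intercept only, trended dispersion, goodness of fit, Benjamini-Hochberg over 14269 genes, and was tested on simulated data. Contrasts used log2(TPM + 0.1) and exact sign-flip tests. Copies were sought with blastn 2.17.0 in GENCODE M21 transcripts. The alternative length was the number of bases of a gene's principal transcript that lie in its counted exons. Levels with it kept all counts of the gene and were not rescaled to the library total. No library pair was a duplicate (chi-square per degree of freedom 28.8 to 83.7).

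Every member is named, and of each related list the 3 highest and 3 lowest. The members and lists were chosen with earlier results of these data known. Alternatives were DESeq2 1.42.0 size factors, filters, pseudocounts, dispersion, GC and length correction, CPM, group means, length and leaving out libraries.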

Additional observations from a re-analysis of the deposited data

Results flagged for a closer look

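In 8 of 77 values examined, 1 library stood farther from the other 3 than Dixon's 95% limit allows, where chance at 1 in 20 would give 3.85. Of these, 6 lie in replicate 1, which was the shallowest library and had a correlation with GC content of -0.26 (rho across genes). The part of depth or GC content in these values was not tested. They include the Pmpca minus Pmpcb difference along with both of its genes, so they are not independent. Timm10b was at 15.4 TPM in replicate 1 and at 12.4 to 12.5 TPM in the others. Pmpca was at 160 TPM there against 176 to 178 TPM, and Pmpcb at 59.9 against 53.5 to 54.4 TPM. Their log2 difference was therefore 1.42 in replicate 1 against 1.69 to 1.73. Polrmt was at 55.3 TPM in replicate 1 against 66.5 to 66.9 TPM, and Hspe1 at 364 against 332 to 337 TPM. In replicate 4, Pld6 was at 0.79 TPM against 0 to 0.0625 TPM, and Ppargc1b at 3.75 TPM against 5.12 to 5.26 TPM.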

How the results depend on the processing

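Of 218 alternative values, 205 kept their direction and side of the threshold, 2 moved and 11 reversed. With CPM in place of TPM, 7 of 25 contrasts reversed: Timm17a minus Timm17b 0.71, Timm8b minus Timm13 -1.25, Tomm40 minus Samm50 0.13, Timm22 minus Timm23 0.71, small TIM chaperones minus TIM23 -0.59, small TIM chaperones minus TIM22 -0.39 and TOM channel minus TOM receptors -0.82. The group mean in place of the median gave -1.19 for the last of these. Principal transcript length, chosen after seeing the data as were the alternatives on Tomm6, gave -0.01 for Timm8b minus Timm13, -0.77 for Dnm1l minus Mff and 0.14 for Tomm40 minus Samm50. These settings change the length or the summary by construction. The median member level was 22.1 as TMM-scaled RPKM. None of 100 contrasts without 1 library reversed. For the 17 pairs and 5 group contrasts with one direction in 4 of 4 libraries, leaving out a library could not reverse the mean. edgeR called 0 members under every alternative, while calls over all genes were 65 with DESeq2 size factors, 75 without a filter, 955 with a common dispersion, 79 with GC and length correction and 41 (without replicate 1) to 68 without 1 library. No paired analysis was possible because there is only 1 group.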
